A study of Homo sapiens with 12 samples.

Results

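The genes described are 46 factors that make or assemble ribosomal subunits in the nucleolus, chosen by name from the 58735 gene rows of the count table, and all 46 were found. They were measured by polyA RNA-seq in the human prostate cancer line C4.2B, a castration-resistant derivative of LNCaP. The study asked how an EZH2 inhibitor and an AKT inhibitor act together in such cells. There were 4 arms with 3 libraries each, lettered A to C. DMSO cells received vehicle only, and AKTi cells received the AKT inhibitor ipatasertib at 0.25 μM. EZH2i cells received the EZH2 inhibitor tazemetostat at 1 μM, and combination cells received both agents at these doses. Cells of the EZH2i and combination arms had 6 days of tazemetostat before the remaining treatment began. All arms, DMSO included, were moved to medium with charcoal-stripped FBS on the day of dosing, which removes steroid hormones, and were collected 24 hours later. Each arm is 1 line in culture, and its 3 libraries came from plates seeded side by side, so p-values measure the spread between plates.

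Ribosomes are built in the nucleolus, where RNA polymerase I transcribes the ribosomal RNA precursor. Small nucleolar RNPs modify that precursor, the small subunit processome folds and cuts its 5′ part, and separate sets of factors carry the pre-40S and pre-60S particles through maturation and export. These factors are made in proportion to cell growth and are known as a coregulated group in proliferating cells.

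The 12 libraries held 14133755 to 22276417 counts. Expression is given as TMM-scaled CPM, the count of a gene relative to the scaled total of its library, log2 fold changes come from edgeR's quasi-likelihood test over all 12 libraries, and a gene is called at a Benjamini-Hochberg adjusted p-value under 0.05 over 16646 genes tested. All 46 factors passed the filter on low counts. Luminal prostate markers, KLK3 among them, were expressed in every library, the lowest value being 50.02 CPM for TMPRSS2 in a DMSO library. KLK3 ran from 1338 to 1389 CPM in DMSO and from 3881 to 3980.4 CPM in the combination, and the combination libraries also lay above the DMSO libraries for KLK2, FOLH1, TMPRSS2, KRT8 and KRT18. HOXB13 went the other way, with 403 to 439.7 CPM in DMSO and 289 to 303 CPM in the combination. The 10 markers of other cell types summed to 4.85 to 8.08 CPM in DMSO and AKTi, 17.7 to 20.4 in EZH2i and 11.8 to 16.4 in the combination. Most of that was COL1A1, whereas CD3E and KRT5 were at 0 in all 12 libraries. The share of counts on mitochondrial genes was 2.37% to 3.36% in DMSO, 3.93% to 4.29% in AKTi, 4.35% to 5.31% in EZH2i and 5.14% to 5.64% in the combination. These markers and shares moved with treatment, as the assembly factors did, and their part in the results was not tested.

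Combined EZH2 and AKT inhibition lowered nearly the entire set. Of the 46 factors, 44 were lower in the combination than in DMSO, none was higher and 2 were not called, NOP2 and UBTF. Of all genes tested, 73.2% were called in the same comparison, 35.2% lower and 38% higher. The median log2 fold change was -1.43 over the 46 factors, with a range from -2.76 to 0.052, and 0.062 over all genes tested. The level of every combination library lay below that of every DMSO library for 44 of the 46, as it did for 36% of all genes tested. The factors together held 0.850% ± 0.020 of all counts in DMSO (SD, n = 3) and 0.419% ± 0.0067 in the combination (SD, n = 3), and these ranges did not overlap. In bulk RNA, fewer cells of a kind and less RNA per cell cannot be told apart, and fold changes are relative to the other genes. Scaling by library size alone moved the median of all genes to 0.26 and that of the factors to -1.23. The distance between the medians was -1.49 with TMM, with library size alone and with upper-quartile scaling. A change of scaling shifts all genes almost alike, so this distance was bound to stay the same and tests nothing.

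**Figure D1:**
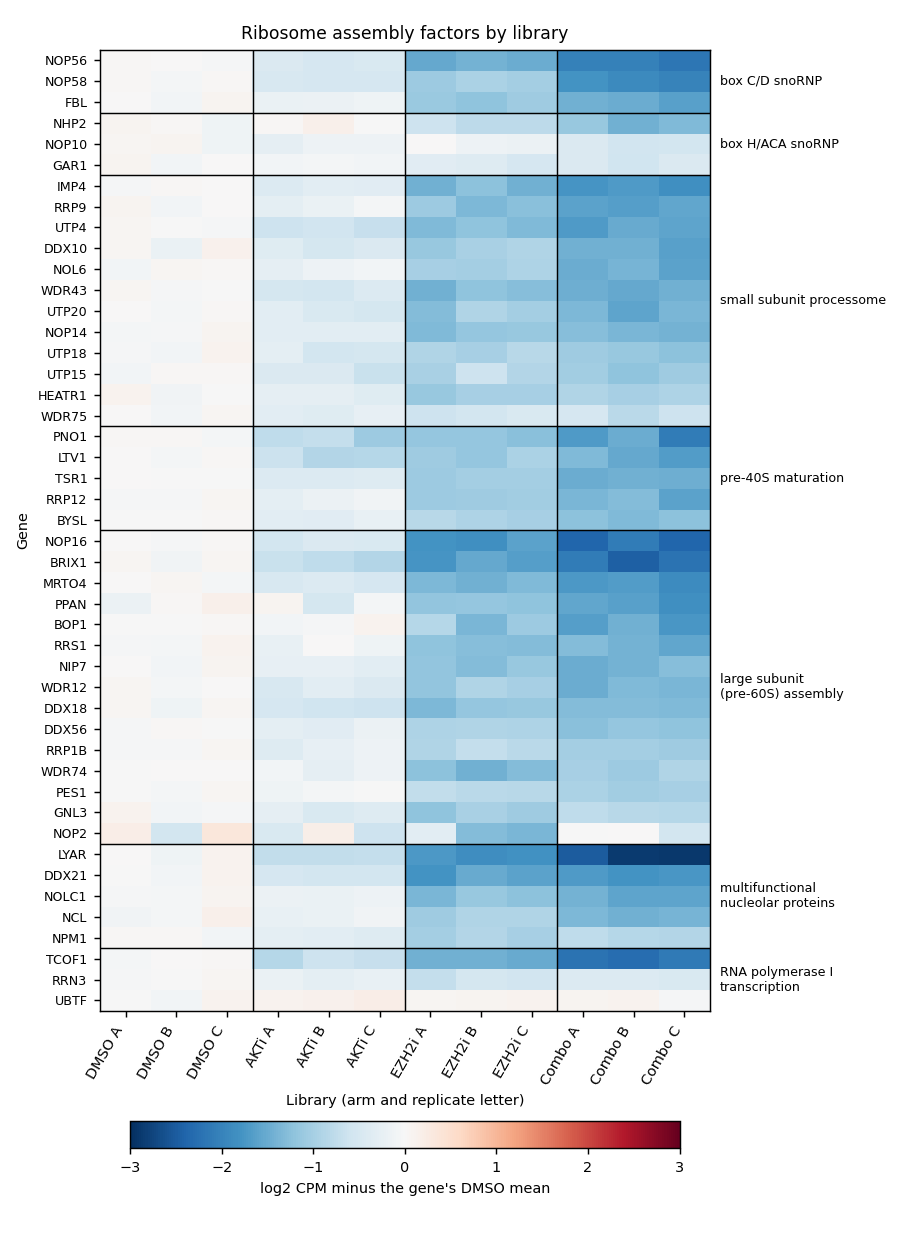
Each row is 1 of the 46 factors, grouped by role, and each column 1 of the 12 libraries; color gives log2 CPM minus the gene's mean in DMSO. Low values are blue, and the combination columns are the deepest blue for most rows, with LYAR lowest, whereas UBTF stays near 0 in all arms.

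Each agent alone, on its own schedule, also lowered the set, to unequal depth. EZH2i cells had tazemetostat for 6 days before the last 24 hours, whereas AKTi cells had ipatasertib for 24 hours only. Agent and length of exposure thus differed together between these arms, and their separate parts in the depth were not tested. With EZH2i, 44 of the 46 factors fell against DMSO and none rose, while 64.1% of all genes tested were called, 31.5% lower and 32.6% higher. The median of the 46 was -1.08. With AKTi, 37 fell and none rose, while 42.5% of all genes were called, 21.9% lower and 20.6% higher, and the median was -0.33. The share of counts in the 46 factors was 0.457% ± 0.017 in EZH2i and 0.715% ± 0.0080 in AKTi (SD, n = 3 each). A direct comparison of the single agents gave 43 factors lower in EZH2i than in AKTi, none higher and 3 not called (NOP10, NOP2 and UBTF), while 50.4% of all genes were called, 25.1% lower and 25.4% higher. The 3 comparisons with DMSO use the same control libraries. In all 3 treated arms, 36 of the factors were called lower, as were 17% of all genes tested.

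The AKTi falls were small, and 7 of the 37 calls depended on scaling. The largest were those of the pre-40S factors PNO1 (-0.85) and LTV1 (-0.80), the pre-60S factor BRIX1 (-0.77), LYAR (-0.74) and TCOF1 (-0.72). The 9 factors not called were UBTF, GAR1, NHP2, NOP2, PES1, WDR74, RRS1, BOP1 and PPAN, 6 of which act in pre-60S assembly. With libraries scaled by size alone, 30 were called lower and the calls of FBL, NOP10, NOL6, RRP9, RRP12, NCL and NOLC1 were lost. These 7 had estimates between -0.19 and -0.17.

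**Figure D2:**
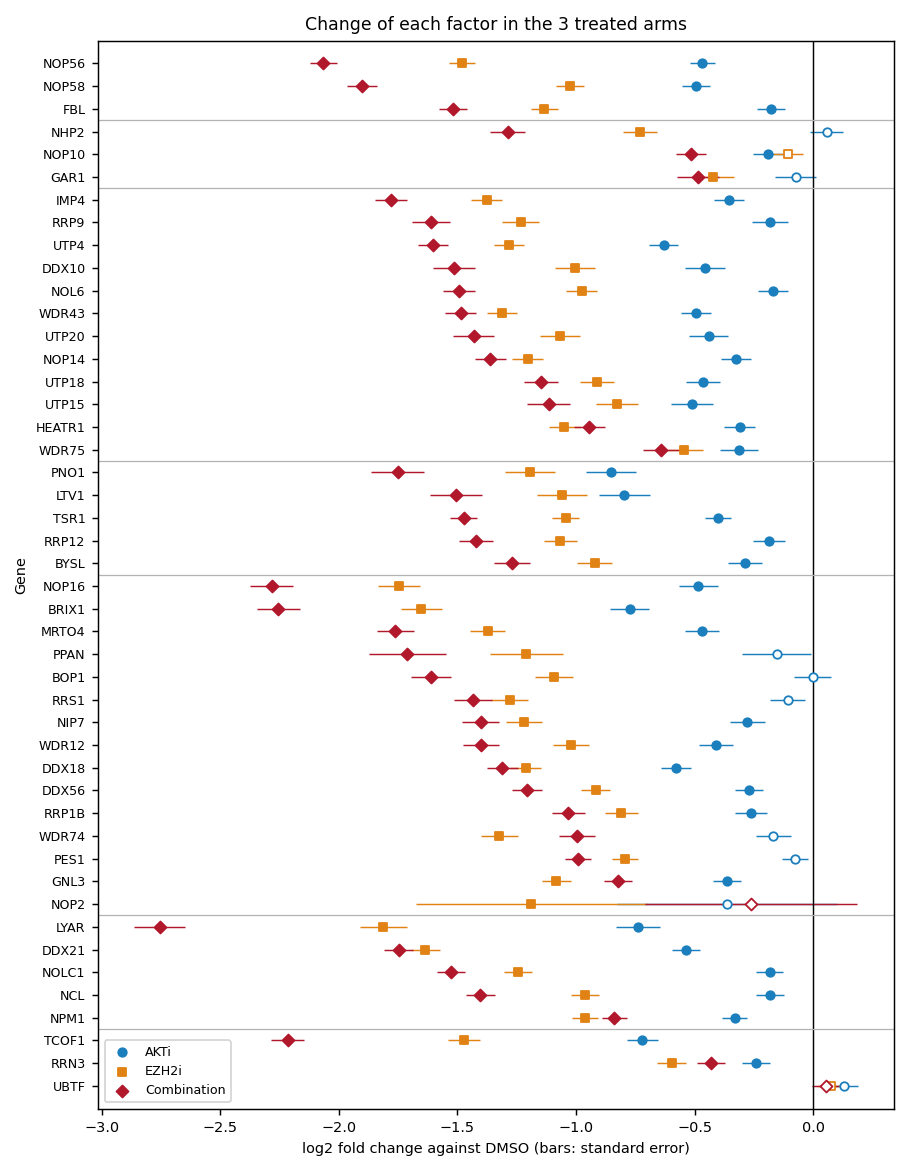
Points give the log2 fold change of each factor against DMSO in AKTi (circles), EZH2i (squares) and the combination (diamonds), with bars for the standard error; filled points were called lower and open points were not called. Combination points lie left of AKTi points for every factor except NOP2, whose bars are the widest.

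**Figure D3:**
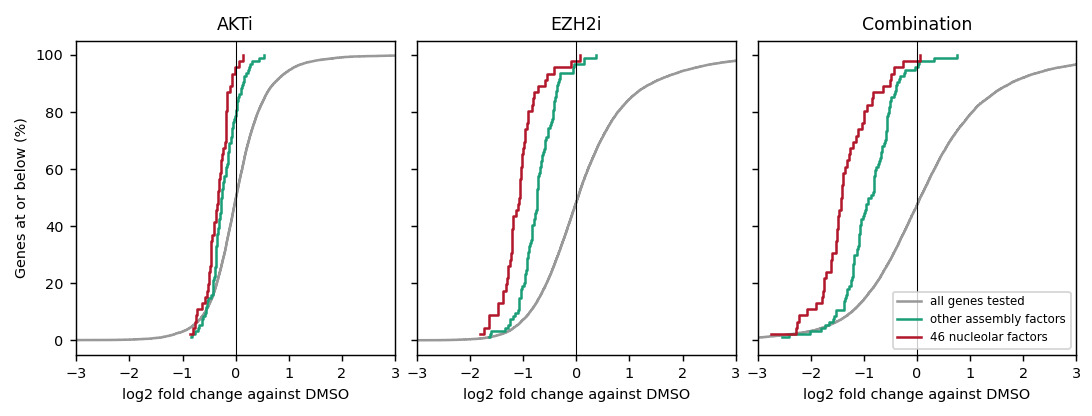
Curves give the percentage of genes at or below each log2 fold change against DMSO, for the 46 nucleolar factors, 94 other ribosome assembly factors and all 16646 genes tested; the axis stops at -3 and 3. The curves of both factor sets lie left of that of all genes over most of their length, with median values of -1.43, -0.89 and 0.062 in the combination.

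Promoter sequences of the factors often held the canonical E-box, CACGTG, the palindromic site to which MYC and related helix-loop-helix factors bind. RefSeq promoter windows on GRCh38.p14 (250 bases before to 50 after the transcript start) were matched by symbol for 38 of the 46. No window was matched for NOP58, RRP12, BOP1, RRP1B, DDX18, RRS1, NOLC1 or TCOF1. The motif reads the same on both strands. Each gene was counted once, as holding the motif if any of its windows did, and 20 of the 38 (52.6%) held it. Counted in the same way, 24 of 81 other ribosome assembly factors (29.6%) held it. So did 12.8% of 10939 genes tested with a window and 8.77% of all 27305 genes with a window. By role, the genes with the motif numbered 8 of 12 for the small subunit processome and 3 of 4 for pre-40S factors. They numbered 4 of 11 for pre-60S factors and none of 2 for RNA polymerase I factors. For the remaining roles, described below, they numbered 2 of 3 (box H/ACA snoRNP), 1 of 2 (box C/D snoRNP) and 2 of 4 (multifunctional nucleolar proteins). In 19 of the 20 genes, a copy lay within 40 bases of the start, as the plot of motif positions shows, and LYAR was the exception at 64 bases before it. The 30 bases around the copy nearest the start are printed below for the 5 such genes with the lowest and 5 of those with the highest combination estimates, gene strand 5′ to 3′, with the motif in capitals, to show that the same site is present at both ends of the range. NOP2 is not shown because its copy lay too near the end of the window. RefSeq starts can lie inside the gene spans of the count table, as for IMP4.
LYAR, chr4:4290068-4290097, minus strand: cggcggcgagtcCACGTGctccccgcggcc
IMP4, chr2:130342900-130342929, plus strand: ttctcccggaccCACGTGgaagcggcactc
MRTO4, chr1:19251807-19251836, plus strand: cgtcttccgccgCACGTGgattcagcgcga
PNO1, chr2:68157885-68157914, plus strand: ggtgcagctgcgCACGTGtttcagccggca
DDX21, chr10:68956604-68956633, plus strand: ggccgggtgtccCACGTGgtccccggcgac
UTP18, chr17:51260538-51260567, plus strand: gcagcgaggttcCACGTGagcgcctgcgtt
PES1, chr22:30591880-30591909, minus strand: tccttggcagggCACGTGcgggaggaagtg
GNL3, chr3:52686026-52686055, plus strand: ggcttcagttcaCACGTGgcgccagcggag
NOP10, chr15:34343130-34343159, minus strand: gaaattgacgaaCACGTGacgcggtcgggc
GAR1, chr4:109815781-109815810, plus strand: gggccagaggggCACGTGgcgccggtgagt
The flanking bases differ from gene to gene. The 20 genes with the motif had a median combination estimate of -1.49, and the 18 without it had one of -1.34. Both sets spanned large and small changes, from -2.76 to -0.26 with the motif and from -2.28 to 0.052 without it. NOP16, BRIX1 and NOP56, which were among the factors with the lowest estimates, had windows without these letters. A match describes the letters only, and binding was not measured in these libraries.

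**Figure D4:**
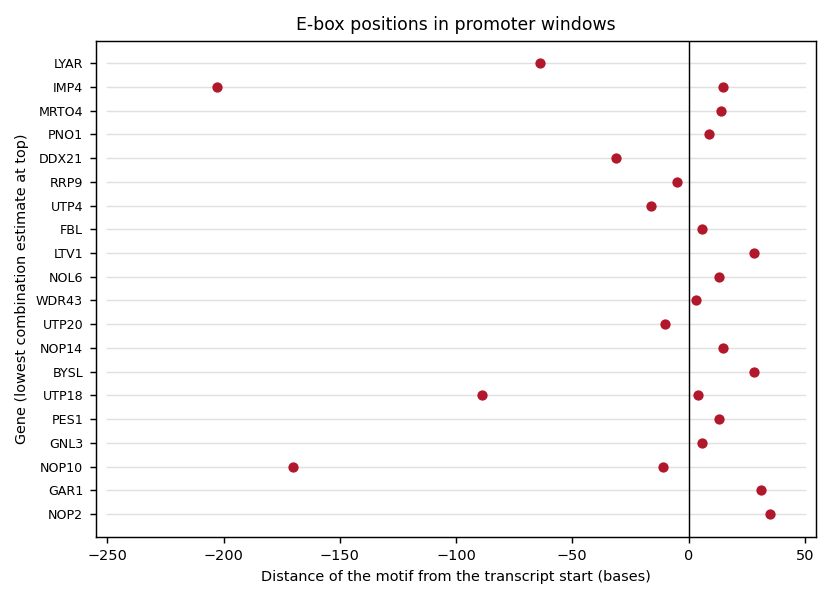
Each row is 1 of the 20 factors whose promoter window held CACGTG, ordered from the lowest combination estimate at the top, and each of the 23 points is 1 copy at its distance in bases from the transcript start. Points cluster around 0 in 19 rows, and IMP4, UTP18 and NOP10 hold a second copy farther upstream.

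Among the snoRNP proteins of the set, the 3 from box C/D particles had lower combination estimates than the 3 from box H/ACA particles. The difference between the groups was not tested. Box C/D particles guide ribose methylation of ribosomal RNA, and box H/ACA particles guide its pseudouridylation. NOP56 (ENSG00000101361, chr20:2652145-2658393, plus strand), a core protein that helps to assemble box C/D particles, measured 342, 339 and 326 CPM in DMSO, 248, 237 and 243 in AKTi, 115, 125 and 120.5 in EZH2i and 82.9, 82.9 and 74.8 in the combination. Its 4 arms did not overlap and were ordered DMSO, AKTi, EZH2i, combination from high to low. The log2 fold change in the combination was -2.06 (SE 0.057, adjusted p = 1.1e-27), a fall of 76.1%. NOP58 (ENSG00000055044, chr2:202265716-202303666, plus strand), its partner in the particle, measured 190.0, 178 and 189 CPM in DMSO, 134, 130.4 and 131 in AKTi, 87.2, 95.4 and 90.9 in EZH2i and 53.5, 49.1 and 46.1 in the combination. These values again gave 4 separate arms, with a combination estimate of -1.90 (SE 0.062, adjusted p = 1.9e-25). FBL (ENSG00000105202, chr19:39834458-39846414, minus strand), fibrillarin, the methyltransferase of the particle, measured 318, 297 and 335 CPM in DMSO, 274, 279 and 287 in AKTi, 145, 136 and 151 in EZH2i and 117, 113 and 102 in the combination. Its AKTi libraries lay below but close to the DMSO libraries, and its estimates were -0.18 (SE 0.057, adjusted p = 0.011) with AKTi and -1.52 (SE 0.059, adjusted p = 5.0e-23) in the combination. The AKTi call of FBL was lost without DMSO C, where the estimate was -0.14.

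The 3 box H/ACA proteins of the set had a median combination estimate of -0.52, against -1.90 for its 3 box C/D proteins. NHP2 (ENSG00000145912, chr5:178149460-178153967, minus strand) measured 112, 107 and 96.2 CPM in DMSO, 107, 117 and 104 in AKTi, 68.6, 60.9 and 60.96 in EZH2i and 47.95, 38.9 and 42.05 in the combination. AKTi libraries overlapped DMSO, EZH2i libraries were lower and the combination libraries were lower still, with a combination estimate of -1.29 (SE 0.075, adjusted p = 7.5e-18). NOP10 (ENSG00000182117, chr15:34341713-34343177, minus strand), which holds the particle together, measured 128, 131 and 113 CPM in DMSO, 103, 111 and 110.5 in AKTi, 124, 112 and 109 in EZH2i and 91.6, 83.3 and 84.2 in the combination. EZH2i overlapped both DMSO and AKTi, and only the combination stood clear of the other arms. Its estimates were -0.19 (SE 0.064, adjusted p = 0.016) in AKTi, -0.11 (SE 0.064, adjusted p = 0.14) in EZH2i and -0.52 (SE 0.064, adjusted p = 5.9e-09) in the combination. The AKTi call was lost without DMSO A (-0.17) or AKTi A (-0.16). The EZH2i estimate passed the threshold without DMSO C (-0.17), AKTi B (-0.15), AKTi C (-0.16) or EZH2i A (-0.19), and was above 0 with library-size and upper-quartile scaling (0.038 and 0.012). GAR1 (ENSG00000109534, chr4:109815510-109824740, plus strand), which binds near the catalytic site, measured 33.5, 30.1 and 31.9 CPM in DMSO, 29.9, 30.7 and 30.2 in AKTi, 25.04, 24.1 and 22.4 in EZH2i and 23.7, 20.99 and 23.6 in the combination. EZH2i and combination libraries overlapped each other and lay below DMSO, and the combination estimate was -0.49 (SE 0.087, adjusted p = 6.5e-06).

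The small subunit processome is the large particle that folds and cleaves the 5′ portion of the ribosomal RNA precursor. All 12 of its factors were called lower than DMSO in each treated arm, as were 17% of all genes tested. The AKTi calls of NOL6 and RRP9 were lost with library-size and upper-quartile scaling. Over the 12 factors the median was -0.40 with AKTi, -1.06 with EZH2i and -1.46 in the combination. IMP4 (ENSG00000136718, chr2:130342225-130347810, plus strand), a protein of the U3 snoRNP, fell the most and measured 119, 124 and 121 CPM in DMSO, 91.4, 97.5 and 95.4 in AKTi, 44.4, 51.3 and 44.4 in EZH2i and 35.3, 36.96 and 33.6 in the combination. Its arms were separate, and its combination estimate was -1.78 (SE 0.067, adjusted p = 1.8e-23). RRP9, which also binds the U3 snoRNA, had -1.61. WDR75 (ENSG00000115368, chr2:189441433-189475565, plus strand), a WD-repeat protein also needed for precursor transcription, fell the least and measured 53.9, 50.1 and 55.4 CPM in DMSO, 42.8, 41.1 and 44.6 in AKTi, 34.4, 36.4 and 38.4 in EZH2i and 37.5, 30.3 and 34.5 in the combination. EZH2i and combination libraries of WDR75 overlapped, and the combination estimate was -0.64 (SE 0.079, adjusted p = 4.8e-09). Between them lay UTP4 (-1.60), DDX10 (-1.51), NOL6 (-1.49), WDR43 (-1.49), UTP20 (-1.43), NOP14 (-1.36), UTP18 (-1.15), UTP15 (-1.11) and HEATR1 (-0.94), in the combination against DMSO. DDX10 is an RNA helicase, and UTP4, UTP15, WDR43, WDR75 and HEATR1 belong to the subcomplex that binds the precursor first.

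The 5 pre-40S factors fell in all 3 arms, as did 17% of all genes tested. All 5 factors were lower in the combination than in EZH2i, as were 25.7% of all genes. PNO1 (ENSG00000115946, chr2:68157844-68176238, plus strand), an RNA-binding protein of the maturing 40S particle whose start site sequence is printed above, measured 43.7, 43.4 and 40.7 CPM in DMSO, 24.96, 25.7 and 20.02 in AKTi, 19.1, 18.9 and 17.8 in EZH2i and 12.9, 15.1 and 9.79 in the combination. All 4 arms were separate, and the AKTi estimate of -0.85 (SE 0.11, adjusted p = 3.1e-08) was the lowest of the 46. In the combination the estimate was -1.75 (SE 0.11, adjusted p = 1.3e-16). BYSL (ENSG00000112578, chr6:41921188-41933046, plus strand), bystin, fell the least of the 5 and measured 59.8, 59.5 and 61.95 CPM in DMSO, 48.8, 48.1 and 52.00 in AKTi, 34.02, 31.7 and 30.3 in EZH2i and 25.6, 23.98 and 25.6 in the combination. Its arms were separate too, with -1.27 (SE 0.075, adjusted p = 1.3e-17) in the combination. LTV1, which leaves the particle as it matures, measured 30.3, 28.9 and 31.02 CPM in DMSO, 19.2, 16.3 and 16.5 in AKTi, 14.3, 13.3 and 15.6 in EZH2i and 11.96, 10.4 and 9.36 in the combination. Its arms were separate, and its combination estimate was -1.51 (SE 0.11, adjusted p = 6.2e-15). The GTPase-like TSR1 had -1.47 and RRP12 had -1.42.

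Of the 15 pre-60S factors, 14 fell in the combination, 15 in EZH2i and 9 in AKTi. The matching shares of all genes tested were 35.2%, 31.5% and 21.9%. The 15 in EZH2i include NOP2, whose low counts are described below. NOP16 (ENSG00000048162, chr5:176383938-176388975, minus strand) had the lowest combination estimate of the 15. It measured 58.6, 57.1 and 59.3 CPM in DMSO, 39.5, 43.4 and 42.2 in AKTi, 16.8, 16.1 and 19.1 in EZH2i and 11.2, 13.6 and 11.2 in the combination. The 4 arms did not overlap, and the combination estimate was -2.28 (SE 0.092, adjusted p = 1.2e-22), a fall of 79.5%. BRIX1, needed for assembly of the early 60S particle, measured 77.4, 68.7 and 77.1 CPM in DMSO, 46.6, 43.9 and 40.2 in AKTi, 21.6, 25.7 and 23.7 in EZH2i and 17.3, 13.5 and 15.8 in the combination. Its arms were separate as well, with a combination estimate of -2.25 (SE 0.090, adjusted p = 1.0e-22). MRTO4, which holds the place of the stalk protein P0, had -1.76, and PPAN and RRS1 had -1.71 and -1.43. The PeBoW complex acts in processing of the large subunit RNA, and its members BOP1, WDR12 and PES1 had -1.61, -1.40 and -0.99. The helicases DDX18 and DDX56 had -1.31 and -1.21, NIP7 had -1.40, RRP1B had -1.03 and WDR74 had -1.00. GNL3, nucleostemin, a nucleolar GTPase, measured 314, 278 and 288 CPM in DMSO, 244, 214 and 225 in AKTi, 128, 148 and 139 in EZH2i and 171, 165 and 161 in the combination. Its combination libraries lay between those of AKTi and EZH2i, and the combination estimate was -0.82 (SE 0.060, adjusted p = 6.9e-15).

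NOP2, a methyltransferase of large subunit RNA (ENSG00000111641, chr12:6556863-6568691, minus strand), was the only pre-60S factor not called in the combination. It measured 1.21, 0.664 and 1.34 CPM in DMSO, 0.723, 1.19 and 0.626 in AKTi, 0.804, 0.351 and 0.322 in EZH2i and 1.01, 1.04 and 0.665 in the combination. These levels rest on 6 to 28 counts per library and 165 counts in all, and the 4 arms overlapped. The combination estimate was -0.26 with a 95% interval of -1.17 to 0.64 (adjusted p = 0.61), which spans 0 and has its lower bound above the median of the 46, -1.43. The EZH2i estimate was -1.19 (SE 0.49, adjusted p = 0.032), a call lost without DMSO A (-1.11), DMSO C (-0.98), EZH2i B (-1.02) or EZH2i C (-0.97), and also with library size alone (-1.05), upper-quartile scaling (-1.07) or with every gene with 1 count or more tested (-1.19). Another protein-coding gene on the same strand, AC006064.6, spans 99.8% of NOP2 and is listed at 0 in all libraries. Reads that fall in both genes may have been left uncounted, which was not tested, so the values of NOP2 may not give its expression level.

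The multifunctional nucleolar proteins included both the lowest combination estimate and the most abundant transcript of the set. LYAR (ENSG00000145220, chr4:4267701-4290169, minus strand), a zinc-finger protein of the nucleolus, measured 49.9, 44.9 and 53.1 CPM in DMSO, 29.3, 29.5 and 30.2 in AKTi, 14.9, 13.4 and 13.9 in EZH2i and 8.67, 6.63 and 6.52 in the combination. Each arm was separate, and the combination estimate was -2.76 (SE 0.11, adjusted p = 3.8e-23), a fall of 85.2%. NPM1 (ENSG00000181163, chr5:171387116-171411137, plus strand), nucleophosmin, a chaperone of ribosomal and histone proteins, measured 2176, 2150.1 and 2002 CPM in DMSO, 1729, 1684 and 1615 in AKTi, 1039, 1149.9 and 1056 in EZH2i and 1236, 1164 and 1139 in the combination. EZH2i and combination libraries overlapped and both lay below AKTi, with a combination estimate of -0.84 (SE 0.054, adjusted p = 1.7e-16). NCL, nucleolin, which binds the precursor RNA, measured 1206, 1247 and 1429.5 CPM in DMSO, 1101, 1119 and 1201 in AKTi, 613, 692 and 688 in EZH2i and 504, 477 and 488 in the combination. The lowest DMSO library of NCL was only just above the highest AKTi library, and its AKTi call was lost without DMSO C (-0.11) or AKTi A (-0.16). The combination estimate was -1.40 (SE 0.060, adjusted p = 9.0e-22). The helicase DDX21 measured 634, 606 and 695 CPM in DMSO, 454, 442 and 439 in AKTi, 186, 224 and 212 in EZH2i and 198, 186 and 193 in the combination. Its combination and EZH2i libraries overlapped, and its combination estimate was -1.75 (SE 0.061, adjusted p = 1.4e-24), while NOLC1, which binds snoRNPs, had -1.53.

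Factors of RNA polymerase I transcription split 3 ways. TCOF1 (ENSG00000070814, chr5:150357629-150400308, plus strand), treacle, which links precursor transcription to its modification, measured 126, 133 and 136 CPM in DMSO, 72.99, 85.05 and 81.8 in AKTi, 48.1, 48.3 and 46.03 in EZH2i and 28.3, 26.8 and 30.02 in the combination. All arms were separate, and the combination estimate was -2.21 (SE 0.070, adjusted p = 6.7e-26). RRN3 (ENSG00000085721, chr16:15060022-15094317, minus strand), the initiation factor that brings the polymerase to its promoter, measured 122, 123 and 129.9 CPM in DMSO, 108, 103 and 107 in AKTi, 76.6, 86.97 and 84.2 in EZH2i and 94.4, 93.6 and 90.4 in the combination. It was lower in every treated arm than in DMSO, and its combination libraries lay above its EZH2i libraries, with a combination estimate of -0.43 (SE 0.059, adjusted p = 4.0e-08). UBTF (ENSG00000108312, chr17:44205033-44221626, minus strand), the factor that coats active ribosomal DNA, measured 134, 127 and 145 CPM in DMSO, 145, 147 and 154 in AKTi, 140.2, 143 and 145 in EZH2i and 144, 145 and 132 in the combination. Its 3 treated arms all overlapped DMSO. The UBTF estimates were 0.13 (SE 0.058, adjusted p = 0.068) in AKTi, 0.074 (SE 0.058, adjusted p = 0.27) in EZH2i and 0.052 (SE 0.058, adjusted p = 0.43) in the combination, with a 95% interval of -0.066 to 0.17 for the last. With library size only, UBTF was called higher in all 3 arms (0.19, 0.22 and 0.25), and upper-quartile scaling likewise called it (0.19, 0.19 and 0.24). Without DMSO C the AKTi estimate was 0.19 and was called, and without DMSO B, AKTi A or EZH2i A the combination estimate was below 0 (-0.039, -0.0065 and -0.0055).

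What each agent added to the other was read from the combination against each single agent. The comparison with AKTi covers 6 days of tazemetostat and the 24 hours after, and that with EZH2i covers 24 hours of ipatasertib. Against AKTi, 44 of the 46 factors were lower in the combination, none was higher and NOP2 and UBTF were not called, while 64.2% of all genes tested were called, 32.1% in each direction. Against EZH2i, 32 were lower, 3 higher and 11 not called, while 46.7% of all genes were called, 25.7% lower and 21.1% higher. The median difference from EZH2i was -0.35, and -0.0099 over all genes. Among factors called lower than in EZH2i, the largest differences were those of LYAR (-0.94), NOP58 (-0.88) and TCOF1 (-0.74). The 3 higher genes were WDR74 (0.33), GNL3 (0.26) and RRN3 (0.17). GNL3 and RRN3 overlap expressed genes on the opposite strand, as given below. The call of RRN3 was lost without AKTi A (0.13), EZH2i A (0.085), combination A (0.15) or combination B (0.16), and with every gene with 1 count or more tested (0.14). In the combination, 32 of the factors were lower than in both single agents, as were 19.7% of all genes tested.

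A test of the interaction asked whether the combined change equalled the sum of the single-agent changes on the log2 scale. Of the 46 factors, 5 were lower than the sum, 9 were higher and 32 were not called, which does not show that those 32 equal the sum. Of all genes tested, 28.2% were called, 17.5% lower and 10.7% higher than the sum. The median interaction of the 46 was -0.0051, with 23 estimates on each side of 0. NHP2 was furthest below the sum at -0.62 (SE 0.10, adjusted p = 1.6e-05), followed by BOP1 at -0.51 (SE 0.12, adjusted p = 6.8e-04) and NOP58 at -0.39 (SE 0.086, adjusted p = 6.3e-04). BOP1 measured 148, 148 and 153 CPM in DMSO, 142, 146 and 160.2 in AKTi, 82.7, 57.6 and 70.7 in EZH2i and 47.3, 54.9 and 44.9 in the combination. Like NHP2, it overlapped DMSO with AKTi and was lower in the combination than in EZH2i. GNL3 was furthest above the sum among called genes at 0.62 (SE 0.086, adjusted p = 4.4e-07), followed by WDR74 at 0.50 (SE 0.11, adjusted p = 6.3e-04). WDR74 measured 60.2, 61.4 and 61.6 CPM in DMSO, 57.7, 50.4 and 55.1 in AKTi, 26.2, 22.5 and 24.6 in EZH2i and 30.8, 28.8 and 32.4 in the combination. Its EZH2i libraries were the lowest of the 4 arms. The AKTi estimate of WDR74, -0.17, was not called with all libraries but was without AKTi A (-0.21) or EZH2i A (-0.17). DDX18, called above the sum at 0.48, measured 172, 151 and 172 CPM in DMSO, 116, 109 and 107 in AKTi, 64.3, 74.1 and 75.2 in EZH2i and 66.8, 67.00 and 65.97 in the combination, so its EZH2i and combination libraries overlapped. NOP2 had the highest interaction estimate of the set, 1.29, with a 95% interval of -0.081 to 2.66 (adjusted p = 0.16), and was not called.

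**Figure D5:**
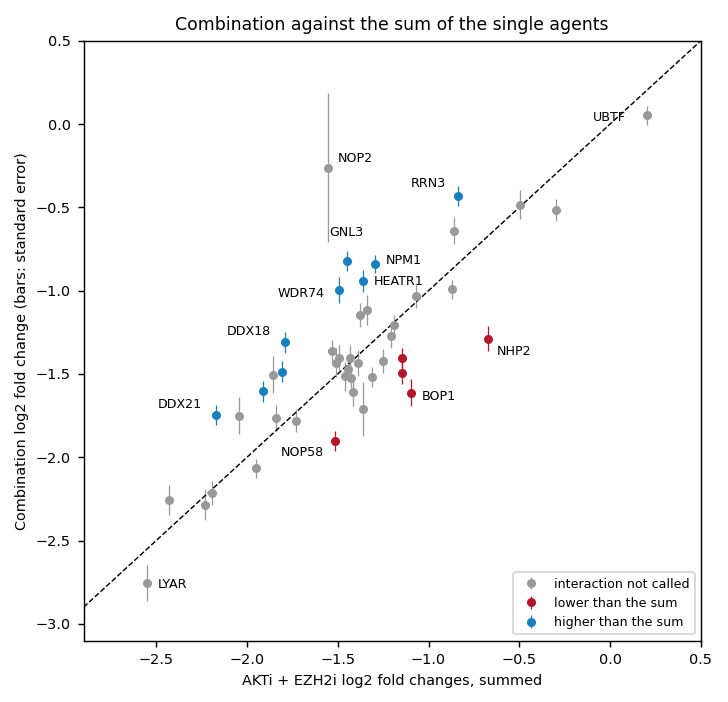
The combination log2 fold change against DMSO (vertical axis, bars for the standard error) is plotted against the summed AKTi and EZH2i log2 fold changes for the 46 factors, with a dashed line where the values are equal. The 5 factors called below the sum and the 9 called above it are colored, and 32 are gray.

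The remaining genes of the pathway were followed with a list of 95 other ribosome assembly factors, of which 94 were tested and ZNF593 was not. In the combination 88 were lower, 2 higher and 4 not called (median -0.89), against 35.2% lower and 38% higher of all genes tested. With EZH2i 88 were lower and 1 higher (median -0.74), against 31.5% and 32.6% of all genes. With AKTi 56 were lower and 6 higher (median -0.27), against 21.9% and 20.6% of all genes. The lowest combination estimates were those of PAK1IP1 (-2.55, SE 0.088, adjusted p = 1.2e-24), MAK16 (-2.41, SE 0.079, adjusted p = 2.4e-25) and EBNA1BP2 (-2.02, SE 0.073, adjusted p = 5.5e-24), all of which act in pre-60S assembly. The 2 higher genes were NOP53 (0.32, SE 0.071, adjusted p = 1.7e-04), a late pre-60S factor, and EFL1 (0.75, SE 0.10, adjusted p = 7.6e-09), a cytoplasmic GTPase that acts with SBDS in the last step of 60S maturation. DDX51, AATF, DDX47 and TSR2 were not called.

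The factors covered a wide range of levels before treatment. Per kilobase of the listed gene length, the DMSO level was 551 ± 24.6 CPM for NPM1, 223 ± 17.2 for NOP10 and 187 ± 17.2 for NCL (SD, n = 3 each). NPM1 stood apart, whereas the DMSO libraries of NOP10 and NCL overlapped. FBL followed at 146 ± 8.61, and the lowest counted levels were those of PPAN (5.06 ± 0.570) and NOP2 (0.229 ± 0.0768), both of which lie almost wholly within another gene on the same strand, so that some of their reads may not have been counted. Across the 46 factors, the combination log2 fold change and the DMSO level per kilobase had a Pearson r of -0.093 and a Spearman rho of -0.058, a description over genes from the same libraries.

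Several factors are host genes of small nucleolar RNAs, which are commonly cut from introns. By the coordinates in the table, 7 of the 46 (15.2%) contain snoRNA genes on the same strand, 25 in all, compared with 215 of 13083 tested protein-coding genes (1.64%). GNL3 holds 6, NOP56 5, NOP58 4, NCL and WDR43 3 each, and PPAN and TSR1 2 each. These counts are of listed entries, which need not be separate snoRNAs. In GNL3, the entry RF01183 (52688882-52688961) overlaps an RF00569 entry (52688890-52688962). All 7 hosts fell in the combination, as did 44 of the 46 factors and 35.2% of all genes tested. The estimates of the 7 hosts ran from -2.06 (NOP56) to -0.82 (GNL3). The snoRNAs themselves were not analysed here.

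Reads of some factors may be shared with neighboring or copied genes, because the strand setting of the counting is not given in the sources used here. In the table, 21 of the 46 overlap another protein-coding gene, 15 of them on the opposite strand only and 6 on the same strand. On the opposite strand, RRN3 (20133 counts in all) lies wholly within PDXDC1 (32978 counts). PBRM1 (39720 counts) likewise overlaps 35.7% of the span of GNL3 (40468 counts). The part of these overlaps in the values was not tested. PPAN (ENSG00000130810, chr19:10106289-10111634, plus strand) lies wholly within the readthrough gene PPAN-P2RY11, which has 9 counts in all, and UTP4 overlaps SNTB2 over 44.1% of its span on the same strand. NPM1 has 45 listed pseudogenes, whose counts sum to 1.88% of those of NPM1, and RRN3 has 3, which sum to 1.89% of its own. Reads left uncounted because they fall in 2 genes are in none of these sums, so the shares set no limit on the uncertainty of these levels.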

How the data were processed

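PolyA RNA-seq counts of 12 C4.2B libraries, 3 per arm, were analysed. The authors aligned reads to hg38 with STAR and counted them on genes with HTSeq. The deposited counts are whole numbers for 58735 genes, and gene lengths and coordinates are given beside them. Tool versions, the gene annotation and whether counting used strand were not given in the sources used here. The table of DESeq2-normalized counts was not used, nor were the paper's other assays.

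Counts were filtered with filterByExpr (minimum count 10, minimum total 15), TMM-scaled and fitted with edgeR 4.0.16 in R 4.3.3 (quasi-likelihood test, 1 mean per arm), with Benjamini-Hochberg adjustment over 16646 genes and a threshold of 0.05. The SE is the absolute log2 fold change divided by the square root of F. The interaction is combination minus AKTi minus EZH2i plus DMSO. DESeq2 1.42.0 was an alternative. The fit was tried on simulated data in which few genes changed. Its error rate with as many changed genes as here was not tested. Replicate libraries differed beyond sampling noise (chi-square per gene 2.53 to 7.50), and each counted as 1 replicate. Library totals were 14133755 to 22276417 counts, and NOP2 was the factor with the fewest counts (6 to 28 per library).

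The factors, their role groups and the other lists, which were written from general knowledge, were chosen with earlier results of these data known, and no test over a list was run. Given in full were, for each role, the lowest and highest combination estimate (all members in groups of 3), members not called lower in the combination, members called higher in any arm (there were none), the 3 lowest and 3 highest interactions, the 3 highest DMSO levels per length, and, of the other factors, the 3 lowest and all higher ones. The library values of LTV1, BRIX1, DDX21 and DDX18 were added after they were seen. Promoter sequences come from RefSeq (GRCh38.p14), and the motif was chosen after the direction of change was known.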

Additional observations from a re-analysis of the deposited data

Results flagged for a closer look

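The AKT inhibitor effect differed between cells without and with tazemetostat for 14 of the 46 factors by the edgeR interaction test. These results are listed here for that reason. The share was close to that of all genes tested, of which 28.2% were called in either direction. Called below 0 were 10.9% of the factors and 17.5% of all genes, and called above 0 were 19.6% and 10.7%. For 5 factors, ipatasertib lowered the transcript more on top of tazemetostat than alone. On the log2 scale the difference, taken as the effect on top of tazemetostat minus the effect alone, was NHP2 -0.62 (adjusted p = 1.6e-05), BOP1 -0.51 (adjusted p = 6.8e-04), NOP58 -0.39 (adjusted p = 6.3e-04), NOL6 -0.35 (adjusted p = 0.005) and NCL -0.26 (adjusted p = 0.018). For the other 9, the effect on top of tazemetostat was the smaller fall, or a rise, and the difference was UTP4 0.31 (adjusted p = 0.0087), WDR43 0.32 (adjusted p = 0.0073), RRN3 0.41 (adjusted p = 2.6e-04), HEATR1 0.42 (adjusted p = 7.9e-04), DDX21 0.42 (adjusted p = 1.7e-04), NPM1 0.46 (adjusted p = 1.2e-05), DDX18 0.48 (adjusted p = 1.0e-04), WDR74 0.50 (adjusted p = 6.3e-04) and GNL3 0.62 (adjusted p = 4.4e-07). Among these, NHP2 went from 0.057 with ipatasertib alone to -0.56 on top of tazemetostat, and GNL3 from -0.36 to 0.26. NCL lost the call without DMSO A (-0.21), DMSO B (-0.20), AKTi B (-0.24), AKTi C (-0.19) or EZH2i C (-0.20). The other 13 kept their call under all 18 alternatives run for the interaction.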

How the results depend on the processing

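Each comparison was run under 19 alternatives, namely DESeq2, 2 other scalings, 2 other filters, a fit of the compared arms alone, a replicate block and the 12 fits that each left out 1 library. In the combination against DMSO, 44 factors were lower under all 19. The number lower ran from 30 to 38 with AKTi, 43 to 45 with EZH2i, 43 to 45 against AKTi, 28 to 36 against EZH2i and 40 to 43 for EZH2i against AKTi. For the interaction, which needs all 4 arms and so had 18 alternatives, 4 to 7 were lower and 9 to 11 higher. In each comparison with DMSO, scaling by library size alone or by the upper quartile gave 1 factor higher, UBTF. With AKTi this also held when the compared arms were fitted alone, and the fits without 1 library gave 0 to 1, the latter without DMSO C. Against EZH2i, 5 were higher with upper-quartile scaling, and EZH2i against AKTi gave 1 with library size alone. Estimates near 0 changed sign. BOP1 with AKTi was 0.056 with library size alone, 0.055 with the upper quartile, 0.011 with the compared arms alone and -0.079 to 0.032 over the fits without 1 library. NOP10 with EZH2i was 0.038 with library size alone and 0.012 with the upper quartile. Over the fits without 1 library, NHP2 with AKTi was -0.016 to 0.10, below 0 without DMSO C (-0.0068) or AKTi B (-0.016). UBTF was -0.024 to 0.13 with EZH2i, below 0 without DMSO B, and -0.039 to 0.10 in the combination, below 0 without DMSO B (-0.039), AKTi A (-0.0065) or EZH2i A (-0.0055). The cause was not tested.

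AKTi calls lost without 1 library were FBL (DMSO C, -0.14), NOLC1 (DMSO C, -0.14), NOP10 (DMSO A, -0.17, and AKTi A, -0.16), NCL (DMSO C, -0.11, and AKTi A, -0.16), RRP12 (DMSO C, -0.15, and AKTi A, -0.13), NOL6 (DMSO B, -0.17, DMSO C, -0.15, and AKTi A, -0.12) and RRP9 (6 libraries, -0.20 to -0.14). These 7 calls were also lost with both other scalings, and those of NOL6 and RRP9 when every gene with 1 count or more was tested. Against EZH2i, WDR43 lost its call without EZH2i B (-0.13), EZH2i C (-0.14), combination A (-0.19) or combination B (-0.15), and also with library size alone (-0.12), the upper quartile (-0.11), the compared arms alone (-0.15) or at least 10 counts in every library (-0.14). NPM1 was called higher in 11 of the 19 alternatives, and DDX18 (-0.20) and DDX21 (-0.22) were called lower without EZH2i A.

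The arms share the replicate letters A to C, but libraries of 1 letter did not deviate together (correlations of deviations from -0.058 to 0.069), so the letters were not treated as pairs. With the replicate block, 44 factors were lower in the combination, 37 with AKTi and 44 with EZH2i. Against EZH2i the block called 4 higher, NPM1 being added, and for EZH2i against AKTi it called 42 lower. NOP2 dropped out of the test where at least 10 counts were required in every library.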
